A study of Homo sapiens with 16 samples.

Results

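The regions described here are stretches of the autosomes, away from gene starts, that carried a broad H3K27me3 call in both libraries of KDM6B-depleted BE2C cells and in neither library of control cells. The broad calls (islands) of the 4 H3K27me3 libraries of the knockdown experiment were merged wherever they shared at least 1 bp, and a merged region was kept when it overlapped islands of both siKDM6B33 libraries, no siCtrl island, and had no start of a protein-coding transcript inside it or within 1 kb. This gave 3233 regions, or 24.5% of the 13215 distal merged regions, out of 17263 autosomal merged regions in all. They are called members here, and "gained" refers to this pattern of calls alone. Because members were chosen by these 4 libraries, all H3K27me3 values of siCtrl and siKDM6B33 cells are given as a description without a test. The 12 other libraries and the base sequence were not used in the choice, and position only through the autosomes and the distance of 1 kb from a start.

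BE2C is an established human neuroblastoma line with amplified MYCN. Cells received a control siRNA (siCtrl) or siKDM6B33, an siRNA against KDM6B, for 72 h, and in a separate experiment 0.1% DMSO or 2.5 µM GSK-J4, a prodrug of the KDM6 inhibitor GSK-J1, for 72 h. CUT&Tag, in which an antibody tethers a transposase that tags the DNA around a histone mark, was done in each of these for H3K27me3 and for H3K4me1, with 2 biological replicates each, so that 16 libraries fell into 8 groups. The cells of all groups are of 1 line, and the knockdown and the compound each have their own controls.

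H3K27me3 is written by polycomb repressive complex 2 and marks silenced developmental genes, often in broad domains around CpG-rich starts. KDM6B is a demethylase that removes it. H3K4me1 marks enhancers, and outside starts the 2 marks are mostly found at different places. H3K27me3 also occurs at low density over gene deserts and the bodies of silent long genes.

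To show what the members look like, 300 bases around the strongest siKDM6B33 narrow peak summit are given for the 4 members with the highest island score per kb, at 2 kb or wider (hg19 coordinates, plus strand, GRCh37 sequence). CpG dinucleotides are in capitals.
beyond PRIM2, chr6:58164354-58164653: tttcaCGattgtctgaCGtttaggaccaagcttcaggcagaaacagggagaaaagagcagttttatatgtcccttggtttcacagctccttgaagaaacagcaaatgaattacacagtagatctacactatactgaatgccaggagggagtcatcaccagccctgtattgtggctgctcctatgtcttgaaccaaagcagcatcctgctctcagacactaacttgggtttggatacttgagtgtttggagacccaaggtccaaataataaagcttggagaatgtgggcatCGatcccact
beyond OR7D4, chr19:9316200-9316499: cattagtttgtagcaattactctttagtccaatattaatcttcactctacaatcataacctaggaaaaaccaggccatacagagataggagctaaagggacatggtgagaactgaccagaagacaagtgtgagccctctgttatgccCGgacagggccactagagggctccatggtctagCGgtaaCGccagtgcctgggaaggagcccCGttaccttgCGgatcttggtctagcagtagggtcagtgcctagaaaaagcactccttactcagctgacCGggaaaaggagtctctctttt
inside MUC12, chr7:100643275-100643574: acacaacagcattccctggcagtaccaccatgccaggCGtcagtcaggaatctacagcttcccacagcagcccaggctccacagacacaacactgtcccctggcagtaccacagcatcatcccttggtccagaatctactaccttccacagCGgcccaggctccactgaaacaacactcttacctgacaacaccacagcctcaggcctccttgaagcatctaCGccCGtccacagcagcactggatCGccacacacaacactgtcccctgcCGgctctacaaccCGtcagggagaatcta
beyond SOX11, chr2:5375554-5375853: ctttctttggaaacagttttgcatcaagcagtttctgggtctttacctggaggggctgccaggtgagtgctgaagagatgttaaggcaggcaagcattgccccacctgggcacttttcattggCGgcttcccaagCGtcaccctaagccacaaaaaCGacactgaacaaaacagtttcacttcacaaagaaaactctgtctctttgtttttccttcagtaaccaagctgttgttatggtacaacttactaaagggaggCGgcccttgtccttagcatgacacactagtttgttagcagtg

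The score per kb is a mean over both siKDM6B33 libraries, and a short island in one of them can raise it: it was 68.1 and 168.0 beyond PRIM2, and 24.5 and 160.0 beyond OR7D4, where the first value is near the median of all members. The member beyond PRIM2 (a DNA primase subunit) lies 981.0 kb from that start, and the one beyond SOX11 (a transcription factor of sympathetic neuroblasts) lies 455.0 kb away. The member beyond OR7D4 (an olfactory receptor) lies 5.95 kb from its start within a lncRNA gene, and the member inside MUC12 (a transmembrane mucin) touches an exon. The 4 windows hold 3, 6, 7 and 4 CpG dinucleotides and are 45%, 48.7%, 57.0% and 46.7% GC, in the order printed. The siKDM6B33 libraries had narrow peaks in all 4 and the siCtrl libraries in the OR7D4 member alone, where the folds were 6.25 and 6.08 in siCtrl and 6.32 and 7.3 in siKDM6B33 cells. None of the 4 members had an H3K27me3 island in a DMSO or GSK-J4 library, or an H3K4me1 island in any library.

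The study drew attention to CTCF, a zinc finger protein that anchors chromatin loops, so the CTCF core consensus (12 bases, both strands) was searched within 100 bp of the strongest siKDM6B33 summit. Of 1729 members with a summit, 21 (1.21%) held a core there, against 1.67% of the 7969 distal merged regions with a summit, 2.13% of the distal regions called in all 4 libraries and 0.0578% of windows moved by 2 kb from the members' summits. The core was thus present at the summit of few members, though more often than in the moved windows. It is a strict 12-base pattern. The study searched peak centres for known motifs with HOMER, which is another measure, so these shares are not set against its result. Anywhere in the region, 3.09% of the members held a core, against 4.62% of all distal regions, which are of other widths. The 6 members of highest score with a core are shown with the core in capitals and 9 bases on each side, on the strand of the core.
beyond MPP7, chr10:28670979-28671008, minus strand: gatggcgtaCCAGCAGGTGGCagtgtaaca
beyond DEFB131A, chr4:9497292-9497321, plus strand: ccagggtctCCACCAGGGGGCaggccagga
inside PDILT, chr16:20371501-20371530, plus strand: gggcactgtCCAGCAGAGGGCctcactgag
inside SLC8A3, chr14:70540842-70540871, minus strand: tgctgcacaCCACCAGGGGGCagcattctc
beyond NRN1, chr6:6057863-6057892, plus strand: cactttgatCCAGTAGAGGGCactgtatct
beyond SLAMF1, chr1:160645533-160645562, plus strand: gcgctggagCCAGCAGAGGGCagtgcagga
The site beyond MPP7 had narrow peaks over it in all 4 libraries, with fold enrichments of 5.21 and 3.45 in siCtrl and 10.0 and 7.0 in siKDM6B33 cells. The site inside PDILT had one in both siKDM6B33 libraries (6.6 and 7.24) and in neither siCtrl library. At NRN1 the first siKDM6B33 library alone had one (7.27), and at DEFB131A, SLC8A3 and SLAMF1 no library of the 4 had a narrow peak over the core. The window printed for OR7D4 holds 1 further core. Over their whole length the members held 6.06 cores per Mb, the distal regions called in all 4 libraries 9.42, and the autosomes 3.9.

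Depth differed between the groups that chose the members. The background that the peak caller used for the whole genome, in tags per position, was 0.0395 and 0.0401 in the siCtrl and 0.0539 and 0.0529 in the siKDM6B33 H3K27me3 libraries, so both knockdown libraries were deeper than both controls. Islands numbered 10555 and 10592 in siCtrl and 15947 and 15775 in siKDM6B33 cells, and covered 1.77% and 1.79% against 3.11% and 3.01% of the distal autosomes. Knockdown of KDM6B could not be checked from these lists, which hold no transcripts. As for the labelled cell type, the adrenergic marker genes PHOX2A, GATA3, DBH and TH carried an H3K4me1 island at a start in both siCtrl libraries and none of these genes an H3K27me3 island in both, and the highest-scoring island of 16 of 16 libraries lay between 16 and 17 Mb of chromosome 2, where MYCN lies. HAND2 and ISL1 had no H3K4me1 island in both siCtrl libraries within 1 kb of a start. Among other cell types, an H3K4me1 island stood at the start of TWIST1, SNAI2, CD14 and CSF1R, and none at PRRX1, FN1, CD3E, CD8A or CDH5, in both siCtrl libraries. H3K27me3 islands of both stood at PRRX1, FN1, CD8A and CSF1R, the last of which carried both marks. The part of these genes in any result was not tested.

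How many regions fell into the pattern depended on how much was called in each library. As called, 3233 distal regions were gained and 210 lost (both siCtrl and neither siKDM6B33), and 434 regions had a call in just 1 siCtrl and 1 siKDM6B33 library, or 108.5 for each of the 4 ways in which that can happen. With a single siKDM6B33 library required instead of both, 5401 regions (first library left out) or 5561 (second left out) were gained. With every library cut to its 10469 highest-scoring islands, 1192 were gained and 590 lost, and 1182 of the 3233 members were among the gained ones. With the widest islands kept instead, 1559 were gained and 828 lost. When each library was held to the same covered length (53.4 Mb, highest scores first), 170 were gained and 1556 lost, so the direction turned, and 160 members remained. Depth, the number of islands and knockdown move together in these 4 libraries and cannot be told apart from the lists.

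**Figure D1:**
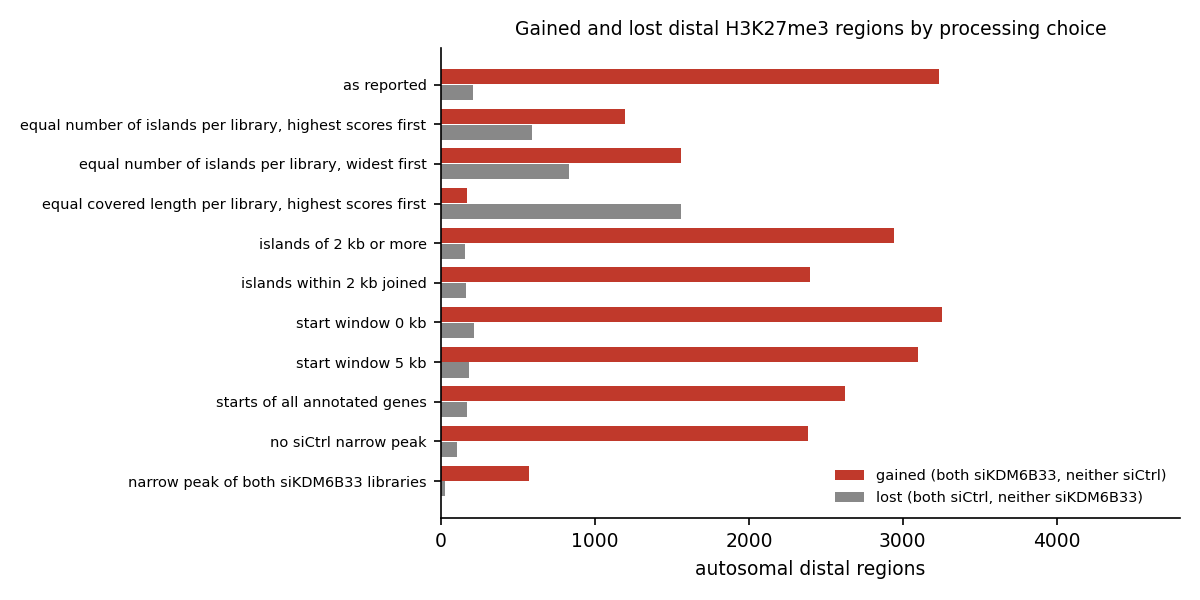
Autosomal distal H3K27me3 regions gained (red) and lost (grey) after KDM6B knockdown, in number (horizontal axis), as reported and under each processing choice (vertical axis). Gained regions outnumber lost ones under every choice shown except equal covered length, where 170 were gained and 1556 lost.

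Members were small and weak beside established H3K27me3 regions. Their width was 4.8 kb at the median (2.6 to 8.6 kb from the 10th to the 90th percentile), against 7.8 kb for the 3747 distal regions called in all 4 libraries and 3.2 kb for lost ones, and in sum they spanned 17.15 Mb, or 0.639% of the autosomes. Their island score was 23.3 and 23.4 per kb in the siKDM6B33 libraries, against 38.4 and 38.7 for the regions called in all 4. The lowest island score that was called in these libraries was 51.5 and 50.9, the members' median 86.3 and 84.2, and 27.4% and 27% of the members exceeded the median of all islands of the library. Most members thus lay in the lower part of each list. Islands of both siKDM6B33 libraries jointly covered 63.5% of the members' length, and in 2547 members (78.8%) they jointly covered at least 50% of it.

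A second kind of call, the narrow peaks, was present in any single library at a minority of the members, while 1502 members (46.5%) had none in either siKDM6B33 library. In siCtrl cells 14.2% and 15.4% of the members held a narrow H3K27me3 peak (95% Wilson intervals 13% to 15.4% and 14.2% to 16.7%), and in siKDM6B33 cells 36.0% and 35.1% (34.4% to 37.7% and 33.5% to 36.8%). Over all distal merged regions these shares were 27.7% and 28.2% in siCtrl and 43.9% and 43.6% in siKDM6B33 cells. The summits were shallow, with a median of 3 and 4 tags in siCtrl and 5 and 5 tags in siKDM6B33 cells, against 8 in each library for the regions called in all 4. There were 348 members (10.8%) with a narrow peak in both siKDM6B33 and neither siCtrl library. At 848 members (26.2%) at least 1 siCtrl library had a narrow peak although it had no island, and at 1194 (36.9%) none of the 4 libraries had one. The intervals cover counting error only.

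**Figure D2:**
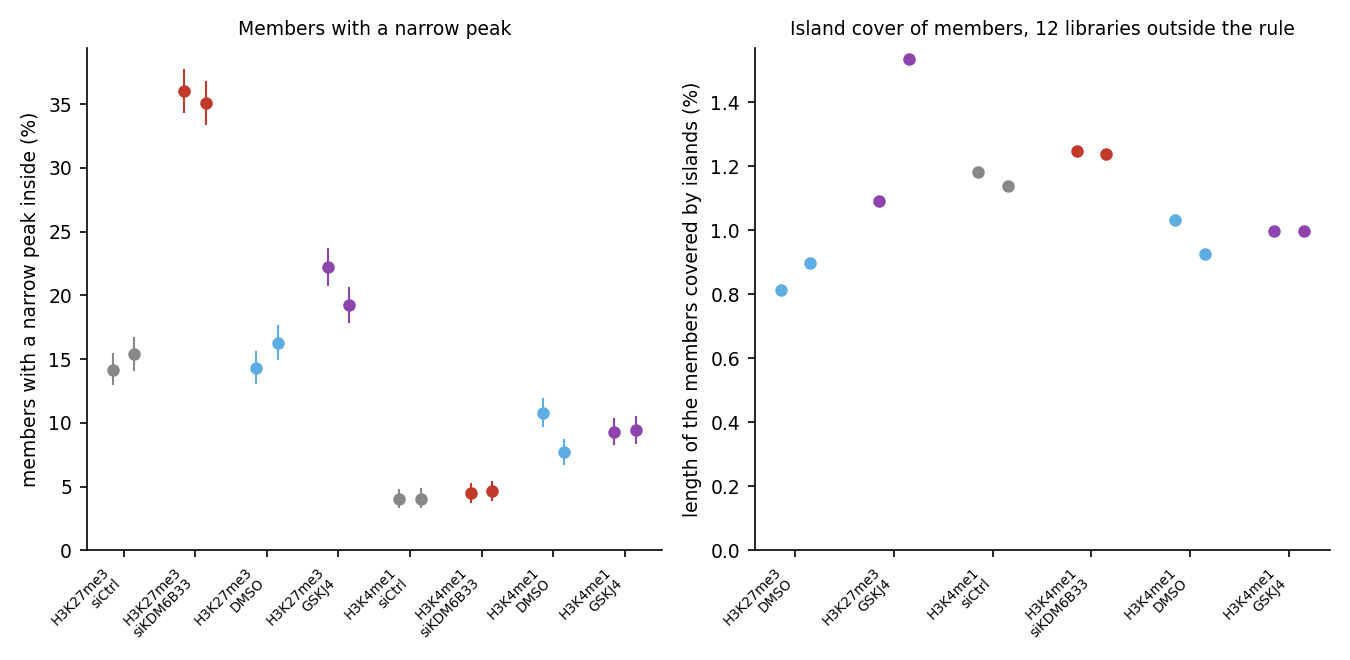
Left, share of the 3233 members with a narrow peak inside (vertical axis, %) in each of 16 libraries, with 95% Wilson intervals as bars. Right, length of the members covered by islands (vertical axis, %) in the 12 libraries that did not choose them; each point is 1 library. Both siKDM6B33 H3K27me3 libraries lie above 35%, and island cover stays below 1.6% in all 12 other libraries.

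Regions at the border of the rule were as follows. The members nearest to a gene start lay 1007 bp from HERC5, 1028 bp from PLEKHG4B and 1032 bp from UMOD, and the closest regions left out lay 969 bp from CCL18, 970 bp from CCDC149 and 981 bp from ENSG00000285749. A further 1201 distal regions were called in both siKDM6B33 libraries and 1 siCtrl library, with a median width of 5.6 kb, and 3463 in 1 siKDM6B33 and no siCtrl library, with a median width of 3.2 kb. Near starts, 275 regions showed the gained pattern.

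The members lay in surroundings that already carried H3K27me3. At 20 to 50 kb from a member's centre, siCtrl islands covered 8.55% and 8.75% of positions, against 1.77% and 1.79% of the distal autosomes. The same flanks were covered at 21.7% and 20.9% in siKDM6B33 cells. The distance from a member to the nearest siCtrl island had a median of 18.6 kb, with 1189 members (36.8%) within 10 kb and 492 (15.2%) more than 100 kb away. The compound experiment, which did not choose the members, gave a like picture of the flanks. Islands covered 4.58% and 5.13% of positions 20 to 50 kb away in DMSO and 3.91% and 6.04% in GSK-J4 cells, and 0.829%, 0.954%, 1.33% and 1.38% at the centre. Cover at the centre was below the lowest flank value in each of the 4 libraries. Since members had to lack an island in siCtrl cells of the same line, low cover at the centre in these libraries is no independent result.

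**Figure D3:**
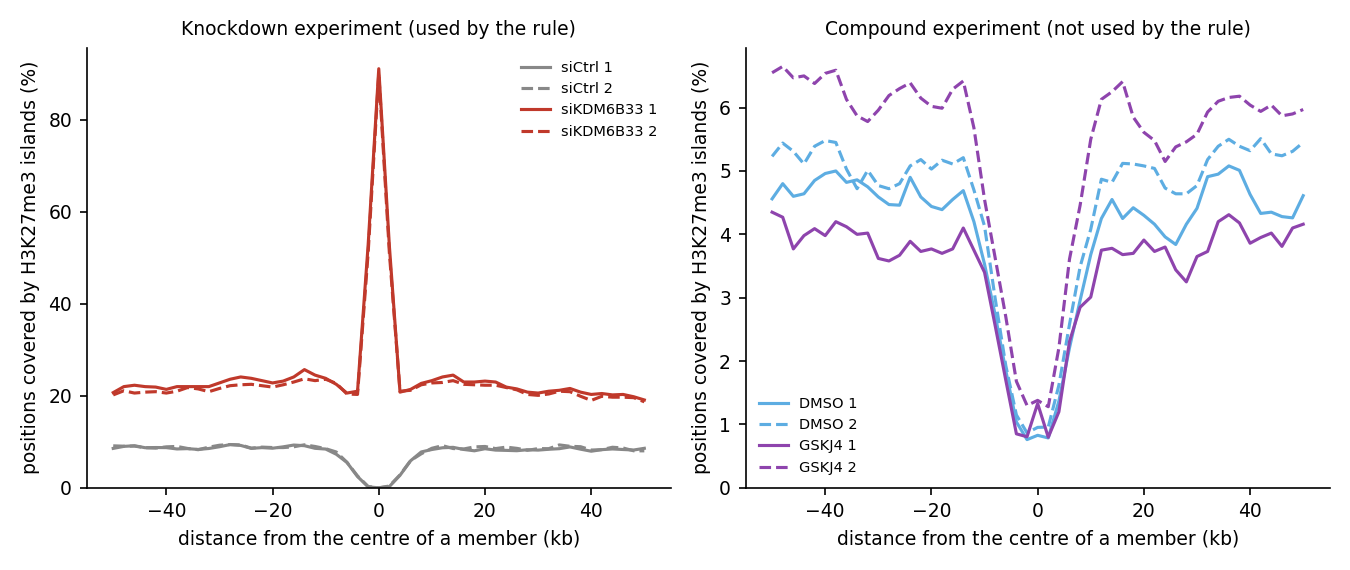
Percent of positions covered by H3K27me3 islands (vertical axis) against distance from the centre of a member in kb (horizontal axis), 1 line a library, in the knockdown experiment (left) and the compound experiment (right, other vertical scale). The siKDM6B33 lines peak at 91.1% and 90.1% by the rule, and the 4 lines of the compound experiment stand at 0.829% to 1.38% at 0 kb. There the first GSK-J4 library (1.33%) is above its values of 0.806% and 0.798% at 2 kb on either side. So are the second GSK-J4 library (1.38%, against 1.3% and 1.28%) and the first DMSO library (0.829%, against 0.761% and 0.787%). The second DMSO library (0.954%) lies between its values of 0.868% and 0.959%.

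To ask whether an inhibitor of the same enzyme family marks the same places, H3K27me3 was read at the members in the compound experiment. Islands covered 0.814% and 0.899% of the members' length in DMSO cells and 1.09% and 1.53% in GSK-J4 cells. Both GSK-J4 libraries were above both DMSO libraries (0.856% ± 0.0602 against 1.31% ± 0.313, mean ± SD, n = 2 each), a ratio of 1.53 at an exact two-sided permutation p of 0.33, the smallest that 2 against 2 libraries can give. Cover of the distal autosomes was also higher with GSK-J4 (1.93% and 2.16% against 2.19% and 2.45%, a ratio of 1.13, exact permutation p = 0.33). The genome background was 0.0298 and 0.0338 tags in DMSO and 0.0507 and 0.0371 in GSK-J4 libraries, so the GSK-J4 libraries were the deeper ones. With equal covered length in the 4 libraries the difference at the members turned to -0.0461 percentage points from 0.457, and without the second GSK-J4 library it was 0.236. With equal numbers of islands it was 0.145 and the groups overlapped (0.814% and 0.899% in DMSO, 0.579% and 1.42% in GSK-J4 cells, exact permutation p = 1.0). The GSK-J4 libraries themselves held 16676 and 8006 islands. Cover of the regions called in all 4 knockdown libraries was 29.8% and 33.7% in DMSO and 26.6% and 37.9% in GSK-J4 cells, and the difference between members and those regions did not separate the groups (-0.0629 percentage points, exact permutation p = 1.0). That difference had no stable direction: the groups were apart at -8.39 when the share of regions touched by an island was taken in place of length, and apart at 4.65 with equal covered length (exact permutation p = 0.33 for both).

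Call by call, hardly any member repeated its pattern with the compound. Islands of both GSK-J4 libraries and neither DMSO library were present at 1 of 3233 members (0.0309%), while 1.32% of all distal merged regions showed that pattern, and the opposite pattern was found at 0 members, against 0.219%. Of the 174 distal regions gained with GSK-J4, 159 were among those called in all 4 knockdown libraries. Only 21 members had an island in both DMSO libraries and could show a loss (1127 of all distal regions, of which 29 did), so the count of 0 says little. An H3K27me3 island of at least 1 of the 4 compound libraries touched 111 members (3.43%), against 19.2% of all distal regions. The 1 member lies on chromosome 11 from 87077401 to 87084800, 328.0 kb from the start of TMEM135 (a membrane protein of mitochondria and peroxisomes), outside protein-coding and lncRNA genes. There, islands covered 0% and 0% of its length in DMSO and 67.6% and 67.6% in GSK-J4 cells, and H3K4me1 islands of all 8 libraries covered between 24.3% and 78.4%, with 70.3% and 48.6% in siCtrl and 43.2% and 24.3% in siKDM6B33 cells. Narrow H3K27me3 peaks were more common: 14.3% and 16.3% of the members held one in DMSO and 22.2% and 19.2% in GSK-J4 cells (exact permutation p = 0.33), and over all distal regions 19.2% and 21.7% against 29.5% and 24.1%.

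H3K4me1 was scarce at the members. Its islands covered 1.18% and 1.14% of their length in siCtrl and 1.25% and 1.24% in siKDM6B33 cells (1.16% ± 0.0305 against 1.24% ± 0.0066, mean ± SD, n = 2 each), with both knockdown libraries above both controls (exact permutation p = 0.33, the smallest possible). H3K4me1 cover of the distal autosomes was 3.47% and 3.31% in siCtrl and 3.43% and 3.42% in siKDM6B33 cells. In the distal regions with H3K27me3 in all 4 libraries, H3K4me1 cover was 3.91% and 3.92% in siCtrl and 5.60% and 5.68% in siKDM6B33 cells. Taken as the cover of members less the cover of those regions in each library, siKDM6B33 differed from siCtrl cells by -1.64 percentage points, and the groups did not overlap (exact permutation p = 0.33). The siKDM6B33 H3K4me1 libraries had a background of 0.107 and 0.105 tags and the siCtrl ones 0.0902 and 0.0849. With equal covered length per library the difference at the members was -0.0583 percentage points, and with equal numbers of islands -0.0198, against 0.0822 as called, while the difference between members and regions called in all 4 kept its sign (-0.878 and -1.19).

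Few members could show a loss of H3K4me1, since 49 had an island in both siCtrl libraries. An H3K4me1 island in both siCtrl and neither siKDM6B33 library was found at 2 of these, or 0.0619% of all members, against 0.409% of all distal regions (54 of the 536 with an island in both siCtrl libraries), and the opposite pattern at 15 (0.464%), against 2.2%. Of the 291 distal regions with the opposite pattern, 214 were called in all 4 H3K27me3 libraries of the knockdown experiment. The 2 with loss lie 212.0 kb from the start of NDUFA10, a subunit of respiratory complex I, and 880.0 kb from that of AUTS2, a neurodevelopmental gene. H3K4me1 islands covered 24% and 20.0% of the first in siCtrl cells and 22.7% and 22.7% of the second, and 0% of both after knockdown. The first also had an H3K4me1 island over 20.0% of it in the first DMSO library. Of those where H3K4me1 appeared, the one of highest H3K27me3 score lies 519.0 kb from the start of ETV1, an ETS family transcription factor, on chromosome 7 from 13501601 to 13507200, where H3K4me1 islands covered 0% and 0% in siCtrl and 17.9% and 17.9% in siKDM6B33 cells. That member also had narrow H3K27me3 peaks of 17.9-fold and 15.6-fold in the siKDM6B33 libraries and none in siCtrl. The other members of this kind named by score lay near CFAP20DC, PROKR2, OR1J1, VRK1 and H2BC13 and inside ENSG00000272297 and KCNIP1, and the H3K4me1 cover after knockdown was between 3.45% and 100% in them. None of the 8 had H3K4me1 islands in the DMSO or GSK-J4 libraries.

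With GSK-J4 the H3K4me1 cover of the members did not separate from DMSO. It was 1.03% and 0.925% in DMSO and 0.998% and 0.997% in GSK-J4 cells (a difference of 0.0187 percentage points, exact permutation p = 1.0), and the difference between members and the regions called in all 4 was 0.157 percentage points (exact permutation p = 1.0). The gained pattern was seen at 2 members, against 0.393% of all distal regions, and the lost pattern at 0, against 0.227%. The latter could be shown by 44 members with an H3K4me1 island in both DMSO libraries. Counting both marks and both experiments, 3083 members (95.4%) had no island in any of the 12 libraries outside the rule, against 78.5% of all distal merged regions. Background tags of these H3K4me1 libraries were 0.0569 and 0.0483 in DMSO and 0.0547 and 0.0559 in GSK-J4.

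Members lay far from gene starts. The nearest protein-coding start was 66.1 kb away at the median, against 39.8 kb for distal regions called in all 4 libraries, 25.1 kb for lost ones and 48.2 kb for all distal regions, and 1184 members (36.6%) were over 100 kb away, against 29.6% of all distal regions. Protein-coding gene bodies held 1300 members (40.2%), of which 743 touched no exon, and another 631 (19.5%) lay in lncRNA genes alone. No annotated gene of any type was present at 1150 (35.6%). These shares were close to those of all distal regions, at 40.4%, 19.4% and 35.5%. Gene bodies took 39.4% of the members' length, 38.4% of that of all distal regions and 46.5% of the autosomes. The nearest start was often a polycomb target: for 1760 members (54.4%) a start of that gene carried H3K27me3 islands in both siCtrl libraries, against 52.9% for all distal regions and 16.4% of protein-coding genes. An H3K4me1 island in both siCtrl libraries stood at that gene for 11.6%, against 15.4% and 25.2%. Members therefore resembled all distal regions in H3K27me3 at their nearest gene, while H3K4me1 there was less frequent.

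Many members came in runs. Joined at 100 kb, 2479 of them (76.7%) had at least 1 other within reach, and 157 clusters held 5 or more. The same share was not computed for all distal regions, so runs cannot be called particular to the members. Close islands also counted as separate members: with islands within 2 kb joined, 2394 regions were gained. The cluster with most members, 21 over 750.0 kb of chromosome 8 (20657401 to 21407400), covers no protein-coding gene. The next, 18 over 636.6 kb, lies within DLGAP2, and 15 members over 353.4 kb lie within KCNJ6. Clusters without a protein-coding gene were also found on chromosome 5 (15 members over 345.2 kb), chromosome 10 (15 over 428.8 kb) and chromosome 6 (14 over 463.2 kb), and 15 members lay over 460.0 kb around BCL11B, a zinc finger factor of neurons and T cells. On chromosome 21, 15 members over 631.0 kb spanned 6 genes, among them BACE2, a protease, RIPK4, a kinase, and TMPRSS2, a serine protease.

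**Figure D4:**
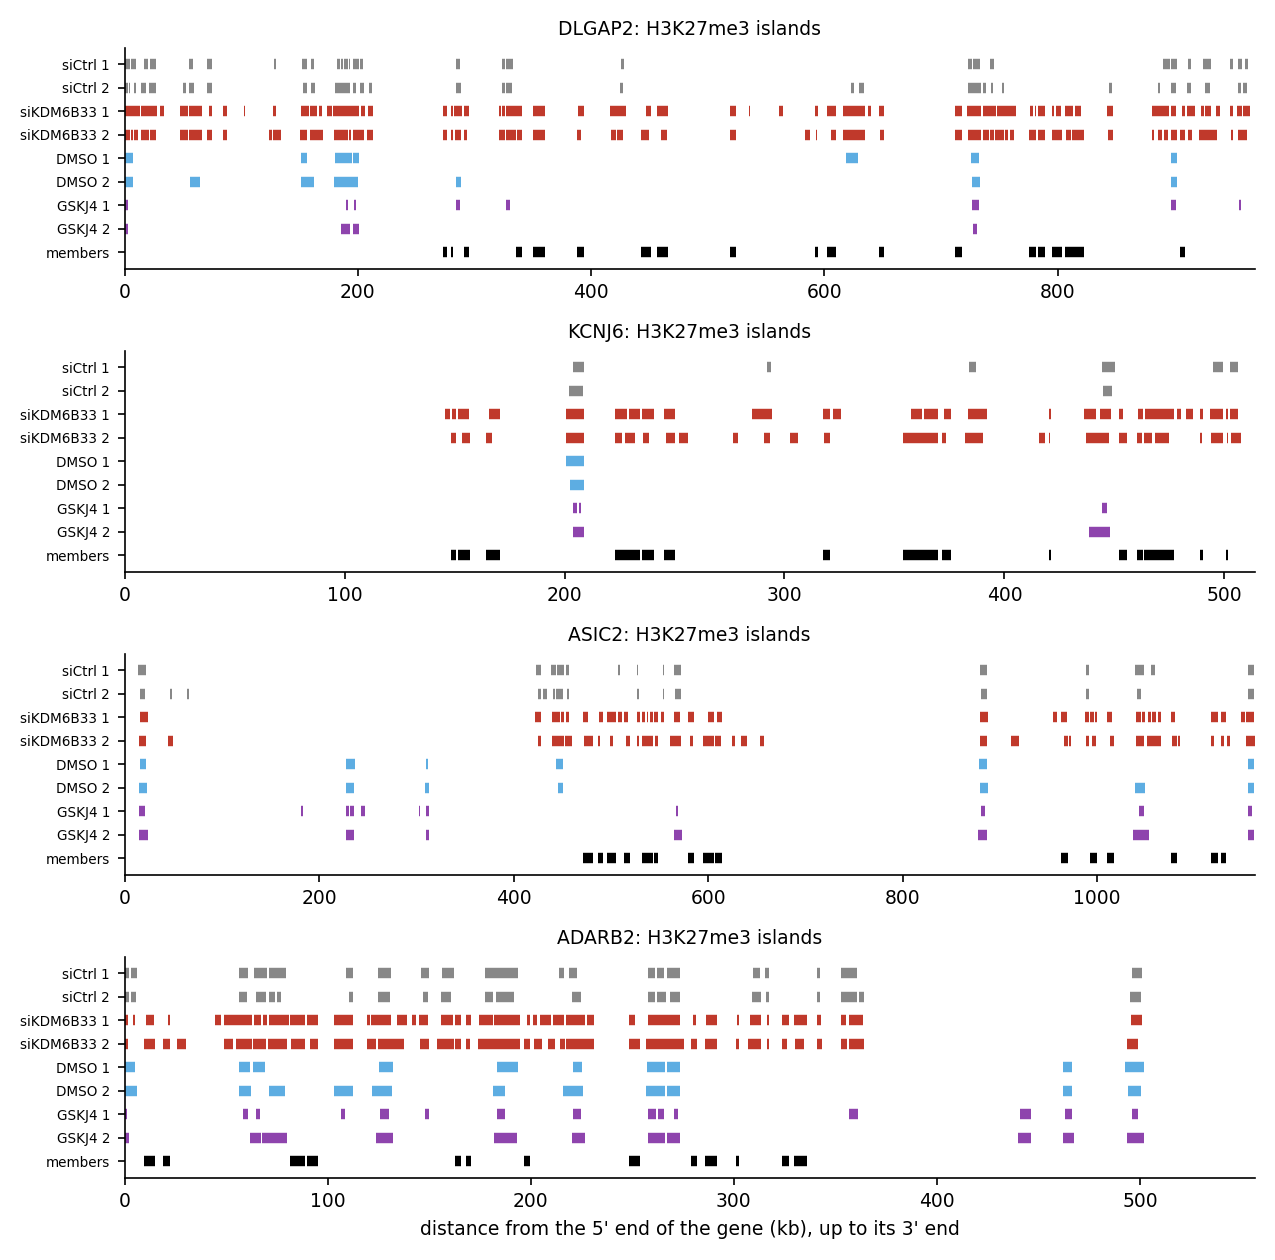
H3K27me3 islands (bars) of the 8 H3K27me3 libraries and the members (black) along DLGAP2, KCNJ6, ASIC2 and ADARB2, the 4 genes with most members; the horizontal axis is the distance from the 5' end of the gene in kb. Members fill spaces between siCtrl islands, and no DMSO or GSK-J4 island overlaps a member in these genes.

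The 10 genes with most members are 187.9 to 1162 kb long. DLGAP2, a postsynaptic scaffold protein (chromosome 8, 687628 to 1656642), held 18. KCNJ6, a G protein-gated potassium channel (chromosome 21), and ASIC2, an acid-sensing sodium channel (chromosome 17), held 15 each. ADARB2, a brain member of the RNA editing enzyme family, held 13, COBL, an actin nucleator, and MTUS2, a microtubule-binding protein, 12 each, ATP10A, a phospholipid flippase, and CACNA1E, a voltage-gated calcium channel, 11 each, ANO2, a calcium-activated chloride channel, 10, and SPOCK1, a proteoglycan, 9. All 10 had an H3K27me3 island in both siCtrl libraries at 1 of their starts. Per length, ATP10A was densest, at 5.85 members per 100 kb, and COBL next at 3.99.

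Over whole gene bodies, the compound experiment, which did not choose these genes, gave no single direction. Islands covered 10.9% and 12% of DLGAP2 in siCtrl and 37.1% and 34.7% in siKDM6B33 cells, but 5.49% and 6.73% in DMSO and 2.35% and 2.12% in GSK-J4 cells. The GSK-J4 values are the lower ones, and the groups do not overlap (exact permutation p = 0.33). COBL was covered at 2.77% and 6.89% in siCtrl, 36.0% and 34.0% in siKDM6B33, 0.77% and 0.97% in DMSO, and 1.44% and 0.437% in GSK-J4 cells, where the last groups overlap. In KCNJ6 the values were 4.59% and 2.1%, then 25.1% and 22.3%, with 1.56% and 1.28% in DMSO and 1.01% and 2.76% in GSK-J4 cells, which overlap as well. CACNA1E was the other way round from DLGAP2 with the compound, at 3.63% and 4.47% in DMSO and 4.8% and 6.41% in GSK-J4 cells (exact permutation p = 0.33), and so was MTUS2, at 2.1% and 2.38% against 3.44% and 2.79% (exact permutation p = 0.33). In the other genes the groups overlapped. The siCtrl and siKDM6B33 values follow from the choice of these genes. H3K4me1 islands covered 4.75% and 4.37% of ASIC2 in siCtrl and 1.29% and 1.51% in siKDM6B33 cells (exact permutation p = 0.33). They were also lower after knockdown in ADARB2 (3.09% and 3.63% against 1.67% and 1.93%) and MTUS2 (4.13% and 3.95% against 3.01% and 1.95%). SPOCK1 was higher, at 1.41% and 0.867% against 1.89% and 1.51%, and H3K4me1 islands covered 0% of DLGAP2, KCNJ6, COBL and CACNA1E in siCtrl against 0.318% to 0.817% after knockdown. In ATP10A and ANO2 there was none in any of these 4 libraries.

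Across gene families, members within 5 kb were found at 770 of 19222 autosomal protein-coding genes (4.01%). Several families of long genes were above this share: 4 of 23 cadherins (17.4%), with 7 members each in CDH13 and CDH4, 15 of 92 potassium channel genes (16.3%), with 39 members, 4 of 25 glutamate receptors (16%), with 6 members at GRIN2B, 5 of 24 ADAMTS family genes (proteases and the related ADAMTSL proteins) (20.8%), 2 of 19 GABA-A and glycine receptors (10.5%), 4 of 42 collagens (9.52%) and 1 of 5 neurexins and neuroligins, NRXN3. The median length of these lists' genes was 50.4 to 898.0 kb, against 27.6 kb for all genes. At or near the share of all genes were axon guidance genes with 3 of 66 (4.55%), of which EPHA4 held 4 members, FOX factors with 2 of 50 (4.0%), keratins with 2 of 55 (3.64%) and KDM demethylases with 1 of 16 (6.25%), the last being KDM4B. Below it were olfactory receptors with 7 of 398 (1.76%) and ZNF genes with 3 of 496 (0.605%). None was found at 18 SOX factors or at 13 contactin genes, although the latter have a median length of 312.0 kb.

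Some genes known from neuroblastoma are given singly, to be read against the 4.01% of all genes with a member within 5 kb. The adrenergic core factors HAND2, GATA3, ISL1 and TBX2 had none within 5 kb. Among 12 mesenchymal-state genes PRRX1 had 1 and NOTCH2 2. Of 15 genes the study speaks of, which include KDM6B, MYCN, E2F8, NAV2, AKT1 and the polycomb subunit genes, CYRIA (also named FAM49A) alone had 1. Between 16 and 17 Mb of chromosome 2, around MYCN, there were 3 members, of 5.2, 7.0 and 5.2 kb, all nearest to CYRIA, at 131.0, 46.9 and 90.3 kb from its start. Their scores were 214.9 and 165.2, 101.8 and 65.1, and 61.2 and 54.1 in the siKDM6B33 libraries, so that the first lay well above the members' median and the third below it. Copy number was not measured here, and these scores are not corrected for it.

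Chromosomes differed in density. There were 1.2 members per Mb over all autosomes, most on chromosome 20 (2.77) and chromosome 21 (2.56) and fewest on chromosome 4 (0.522), chromosome 18 (0.563) and chromosome 3 (0.601). Islands of the siCtrl libraries varied too, between 1.89 and 9.28 per Mb. As a share of the distal merged regions of a chromosome, members made up 38.8% on chromosome 21 and between 17.2% and 27.4% on the others.

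**Figure D5:**
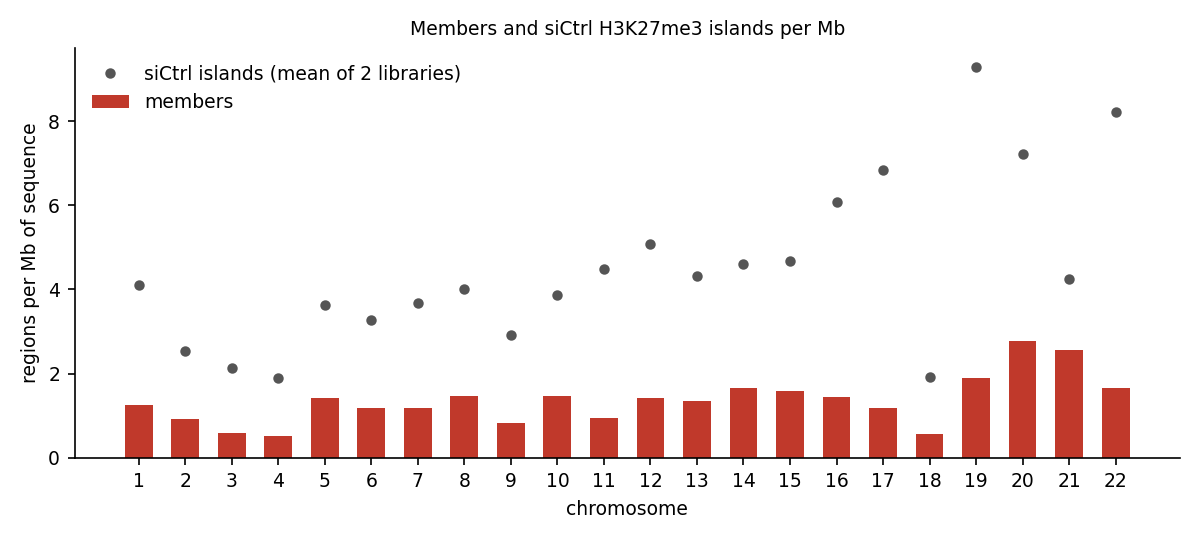
Members per Mb of sequence by chromosome (red bars) and siCtrl H3K27me3 islands per Mb (points, mean of 2 libraries). Members were densest on chromosome 20 (2.77 per Mb) and chromosome 21 (2.56 per Mb), and island density was highest on chromosome 19.

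The strongest members by score per kb after those printed above were inside DNER, a neuronal Notch ligand, inside GLT1D1, a glycosyltransferase, beyond ETV1 and inside SLC1A1, a glutamate transporter. The highest folds of their narrow peaks were 9.93 and 11.8 at DNER, 10.5 and 6.26 at GLT1D1, and 17.9 and 15.6 at ETV1 in the siKDM6B33 libraries, with no siCtrl peak but for a 4.59-fold peak of the first library at DNER. The SLC1A1 member had none in any of the 4 libraries and was covered by H3K27me3 islands at 0% and 61.5% in DMSO and 30.8% and 0% in GSK-J4 cells. The widest members reached 20.0 kb, 1 in an intron of CACNA1E and 1 that lies 98.9 kb from the start of TTC32, of which a GSK-J4 island covered 60.0% in the second library alone. Of the other 6, those inside GSG1L, an AMPA receptor auxiliary protein, and KDM4B, an H3K9 demethylase, measured 19.8 and 18.2 kb, and those nearest to ADPGK, GGTLC2, SLC4A3 and CCRL2 18.4 to 19.4 kb. The KDM4B member was unlike most others: H3K27me3 islands covered 27.5% and 26.4% of it in DMSO and 38.5% and 26.4% in GSK-J4 cells, and H3K4me1 islands of all 8 libraries covered 39.6% to 56%. Its island scores of 479.0 and 620.0 were not matched by narrow peaks in the siKDM6B33 libraries, and the first siCtrl library had 1 of 2.87-fold.

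The median base composition of the members was close to that of all distal regions, with a narrower spread of GC content (42.2% to 52.6% from the 10th to the 90th percentile, against 41.3% to 54.0%). Their GC content was 46.5% at the median, against 46.4% for all distal regions, 47.5% for those called in all 4 and 41.0% for the autosomes. The ratio of observed to expected CpG was 0.218, against 0.231 and 0.267, with 11.7 CpG per kb against 12.2 and 14.8. Members with and without a siKDM6B33 narrow peak summit were alike, at 46.6% and 46.5% GC. For the autosomes the CpG ratio was 0.237. That value and the 41.0% GC are pooled over all bases, so they are not a like measure to the medians of regions.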

How the data were processed

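CUT&Tag of H3K27me3 and H3K4me1 was done in BE2C cells, 16 libraries in all, grouped by their labels. The authors trimmed reads (Trim Galore 0.4.4), aligned them to hg19 (BWA 0.7.12), removed duplicates (Picard 1.65) and kept proper pairs of 150 to 2000 bp. They called islands library by library with SICER 1.1 (window 200 bp, gap 600 bp), and the deposited score of an island adds up the caller's window scores, so it is larger in wider islands and deeper libraries. They called narrow peaks with MACS2, given as 2.1.1 in the submitters' processing notes and otherwise in the methods, and the deposited lists hold a fold enrichment (a ratio to the library's own background), −log10 p and −log10 q values. The authors scaled libraries by E. coli reads, which these lists do not carry, so region lists and not reads were compared, and their voom and limma test could not be run.

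From these lists, merged regions, calls and covered length were computed (pandas 2.3.3, NumPy 2.4.6 and SciPy 1.17.1 under Python 3.11.15, figures by matplotlib 3.10.9). The reference was GRCh37 with GENCODE 44 mapped to it (53322 autosomal starts of protein-coding transcripts of the basic set). Depth was solved from fold and −log10 p of narrow peaks as whole summit tags and a background. Groups of libraries were compared with two-sided exact permutation of the library labels, which cannot pass 0.05 with 2 against 2 and measures only the spread between these cultures. Regions of a library are not replicates, and no test was run over them. On simulated lists, 200 of 200 planted gained and 200 of 200 lost regions were recovered with 0 gained in error among 3490 islands, and 200 of 200 CTCF cores. These lists were copies of islands of the first siCtrl library, without differences in depth or calling between libraries. They check the code and give no error rate for the members.

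Members and gene lists were chosen with earlier results of these data known. Named are the 8 members of 2 kb or more with the highest score per kb, the 8 widest, the 10 genes with most members, up to 8 members in each pattern of change in the other libraries, and the lists. Starts of genes without a basic protein-coding transcript, PECAM1 among them, were not used. Repeat content was not analysed here, since the sequence used carries no repeat mask. Some marker and list genes are not reported here.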

Additional observations from a re-analysis of the deposited data

How the results depend on the processing

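Of 80 recomputed values, 60 kept their direction or, for the number of members, stayed within 1.5 times. Values with a replicate block are counted among the 60, although they use the same difference and could not change direction. The number of members (3233) was 1192 when libraries were cut to equal numbers of islands (highest scores first), 1559 with the widest first, 170 with equal covered length, and 569 where both siKDM6B33 libraries also had to hold a narrow peak. Leaving out 1 library gave 3851 to 5561, the highest without a siKDM6B33 library (5401 without the first, 5561 without the second), when a single knockdown library had to be called.

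The differences that changed sign were all in percentage points. With equal covered length, GSK-J4 minus DMSO at the members was -0.0461 for H3K27me3 and -0.00991 for H3K4me1, siKDM6B33 minus siCtrl for H3K4me1 was -0.0583, and the H3K27me3 difference between members and regions called in all 4 was 4.65. With an equal number of islands the last was 6.94 and H3K4me1 after knockdown -0.0198, and with the 1182 members that remain under equal numbers the H3K27me3 difference was 0.253. By narrow peaks, H3K4me1 with GSK-J4 was -0.0054 at the members and -0.0118 between members and regions called in all 4. Leaving out 1 library, these results ran from 0.236 to 0.678 (H3K27me3, GSK-J4, members), -5.46 to 5.33 (less regions called in all 4), 0.0606 to 0.104 and -1.68 to -1.6 (H3K4me1, knockdown), and -0.0356 to 0.0729 and -0.777 to 1.09 (H3K4me1, GSK-J4). The sign changes came without the first DMSO (1.85) or second GSK-J4 library (5.33) for H3K27me3 less regions called in all 4, without the second DMSO library (-0.0356) for H3K4me1 with GSK-J4, and without the first DMSO (-0.777) or first GSK-J4 library (-0.0645) for its difference from regions called in all 4. The H3K4me1 difference after knockdown between members and regions called in all 4 kept its sign under all 11 alternatives. Among these is the replicate block, which cannot change the sign. With equal numbers of islands, the H3K27me3 difference at the members with GSK-J4 kept its sign (0.145) but the groups overlapped. The causes were not tested beyond what each alternative fixes.

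Same-numbered replicates shared only a number: their deviations correlated at 0.00213, 0.055, -0.000229 and -0.0302 over the 13215 distal regions. With a replicate block (paired differences, exact sign-flip test, smallest p 0.5) the differences were as unblocked: 0.457, -0.0629, 0.0822, -1.64, 0.0187 and 0.157. Of the siCtrl narrow peaks in members, 52.4% and 48.5% had a summit of 3 tags or fewer, so these calls rest on few tags.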

Other observations

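Gene length and the presence of a member went together. Of 4893 genes under 10 kb, 0.286% held a member in their body, against 4.18% of 3015 genes of 50 to 100 kb, 13.5% of 1129 genes of 200 to 500 kb and 22.3% of 310 genes over 500 kb. Per Mb of gene body the density differed less, at 0.6 overlaps in the shortest class, 0.82 at 50 to 100 kb, 1.14 at 200 to 500 kb and 1.05 in the longest. Genes with a member in the body had a median length of 120.0 kb, and 649 members (20.1%) lay in genes over 200 kb.

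Split by GC content into 5 equal classes, the distal merged regions consisted of members at 19.2% in the lowest class (up to 43.0% GC), 26.2%, 28.9% and 27.8% in the middle ones, and 20.2% in the highest (from 50.9% GC).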
